A study of Mus musculus with 12 samples.

Results

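The comparison concerned 1410 of 19937 mouse genes, those whose level differed at least 2-fold between splenic lymphocyte arrays with high and with low transcripts of cell division, alike in 2 pairs of groups, in 1 pair alone or in opposite directions in the pairs. The series holds total RNA on 12 mouse arrays from Affymetrix, 3 in every 1 of the 4 labelled groups, and the strain is C57Bl/6 x FVB throughout. Resting B cells (day 0) were CD43 negative cells taken straight from the spleen and activated B cells (day 4) had been cultured with aCD40+IL4. Resting T cells (day 0) were B220 negative splenic cells and activated T cells (day 4) had been cultured with aCD3+aCD28+IL2. Whether the 3 arrays of each group were 3 mice is not given in the sources used here, and p-values therefore describe only the spread between these samples, which may be technical.

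The labels of the groups were not borne out by lineage genes. Cd3e, which carries the signal of the T cell antigen receptor, had mean RMA levels of 10.61 log2 on the arrays labelled resting B and 10.07 on those labelled activated B, against 5.93 on those labelled resting T and 6.43 on those labelled activated T. Cd79a, its counterpart in B cells, ran the other way, with 8.27 and 4.50 log2 in the labelled B groups and 10.45 and 11.64 in the labelled T groups. The proliferation antigen Mki67 stood at 10.58 log2 on arrays labelled activated B and 10.18 on those labelled resting T, against 6.56 on those labelled resting B and 6.31 on those labelled activated T. Groups are therefore named by their labels alone, and no direction below is assigned to a cell type or to a treatment. In bulk samples, fewer cells of a type and less RNA per cell cannot be told apart.

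The 6 arrays labelled activated B or resting T are called dividing and the 6 labelled resting B or activated T quiescent, as a shorthand for their mitosis transcripts, since division itself was not measured. Each pair was read as dividing minus quiescent, so that the labelled B pair was activated minus resting and the labelled T pair resting minus activated. The pairs share no array. Their mean is the interaction between labelled cell type and labelled activation, divided by 2. The genes were chosen by these differences and their calls, which are therefore given as a description with no p-value.

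A resting lymphocyte is small, metabolically quiet and held out of the cell cycle, and it recirculates between blood, spleen and lymph nodes. Activation makes it grow, replicate its DNA and divide, for which E2F factors switch on replication genes and a later wave, driven by B-MYB, FOXM1 and the MuvB complex, supplies the spindle, the kinetochores and the mitotic kinases. At the same time genes of recirculation and of cell cycle arrest are switched off.

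The mean difference between dividing and quiescent arrays was called at an adjusted p under 0.05 for 8518 genes, or 42.7% of all, with 4359 higher and 4159 lower in the dividing arrays. After each array was centred on its median, which lay 0.11 log2 lower in the dividing arrays over all probe sets, the same counts were 6115 higher and 2937 lower, so that small differences depend on the centring. No median of a gene list given below changed its sign under that centring. Called differences of at least 2-fold were found for 1818 genes in the labelled B pair and for 1576 in the labelled T pair.

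Genes called at least 2-fold in both pairs with the same sign numbered 903, of which 591 (2.96% of all genes) were higher and 312 (1.56%) were lower in the dividing arrays. In the labelled B pair alone 156 genes were higher (0.782%) and 154 lower (0.772%), and in the labelled T pair alone 102 were higher (0.512%) and 75 lower (0.376%). To be counted as alone, a gene had to be called in 1 pair, not in the other, and called for the difference between the pairs. Only 20 genes were called 2-fold in opposite directions, 5 of them higher in the labelled B pair (0.0251%) and 15 higher in the labelled T pair (0.0752%). Another 1061 genes passed 2-fold in 1 pair and entered no class, most of them, 921, with a smaller called difference of the same sign in the other pair. Over all genes the differences of the pairs correlated with r = 0.68, a description across genes, which are not independent replicates.

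**Figure D1:**
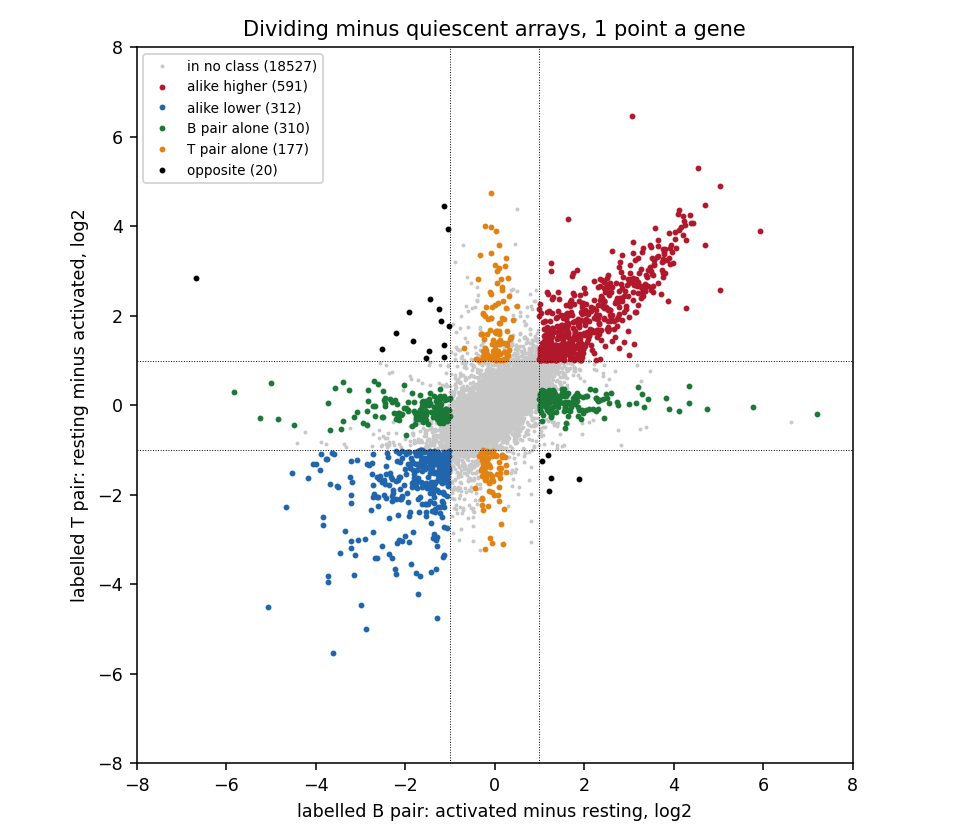
Difference between dividing and quiescent arrays in the labelled B pair (horizontal, log2) and the labelled T pair (vertical, log2), 1 point a gene, coloured by class, with dotted lines at 2-fold. The 591 genes higher and the 312 lower in both pairs lie along the diagonal, and the 310 and 177 genes of 1 pair alone lie along the axes.

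The genes that stood highest in dividing arrays of both pairs were mostly parts of the mitotic machine. Bub1, a kinase of the spindle checkpoint, read 9.33, 9.49 and 9.38 log2 on the arrays labelled activated B and 9.23, 9.22 and 9.20 on those labelled resting T. On the quiescent arrays it read 4.20, 4.46 and 4.45 (labelled resting B) and 3.82, 4.45 and 4.66 (labelled activated T), all below 5.21 log2, the 95th percentile of 1027 olfactory receptor genes, which served as the background. The differences were 5.03 ± 0.16 and 4.91 ± 0.16 log2 (SE, n = 3 against 3), and since the quiescent level was that of background they are lower bounds.

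The same picture held for Kif11, the motor that pushes spindle poles apart. Its levels were 9.73, 9.70 and 9.62 log2 (labelled activated B) and 9.29, 9.28 and 9.33 (labelled resting T), against 5.46, 5.57 and 5.74 (labelled resting B) and 4.66, 4.82 and 5.58 (labelled activated T). Top2a, which untangles replicated DNA, read 10.99, 10.90 and 10.89 log2 and 10.37, 10.47 and 10.62 in the dividing groups, and 6.33, 6.78 and 7.02 and 6.12, 6.12 and 6.52 in the quiescent ones. The dividing and quiescent arrays were separated by more than 3 log2 for both genes. Ncapg, a condensin subunit, was higher by 4.36 and 4.26 log2, Nuf2, of the outer kinetochore, by 4.40 and 4.07, and Tpx2, which activates Aurora A on the spindle, by 4.43 and 4.07, first in the labelled B and then in the labelled T pair.

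Not all of the leading genes were mitotic. Nfil3, a leucine zipper factor induced by cytokines, read 10.16, 10.32 and 10.36 log2 (labelled activated B) and 10.54, 10.44 and 10.11 (labelled resting T), against 5.41, 5.74 and 6.02 (labelled resting B) and 5.23, 4.90 and 5.07 (labelled activated T). Asns, asparagine synthetase, was higher by 4.23 and 4.12 log2 and Pros1, the plasma protein S that also feeds TAM receptors, by 4.71 and 4.48. On average over its 4 groups Pros1 was 1.32 ± 0.11 log2 (SE) higher on the labelled B than on the labelled T arrays, given as a description, since genes without overlap were chosen. H2ac4, a replication-dependent histone whose probes may be shared with near-identical copies, was higher by 4.11 and 4.37 log2.

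Genes lower in the dividing arrays came from other systems. Fos, the immediate early partner of JUN in AP-1, read 8.42 to 9.26 log2 on the 6 quiescent arrays (median 8.61), against 5.30, 5.41 and 5.13 (labelled activated B) and 5.53, 5.36 and 5.51 (labelled resting T). Dusp1, a phosphatase that turns MAP kinases off, read 10.25, 10.47 and 10.28 and 9.97, 9.85 and 9.71 log2 in the quiescent groups and 7.06, 7.20 and 7.12 and 6.69, 6.67 and 6.57 in the dividing ones. S1pr1, the sphingosine phosphate receptor that lets lymphocytes leave lymphoid organs, read 10.91, 10.78 and 11.03 (labelled resting B) and 10.87, 10.84 and 10.79 (labelled activated T), against a mean of 7.93 ± 0.07 (SD, n = 3, labelled activated B) and 6.42, 6.48 and 6.23 (labelled resting T). The genes shown were chosen among those without overlap between dividing and quiescent arrays. The 6 quiescent S1pr1 levels lay between 10.78 and 11.03 log2.

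Rgs2, which dampens G protein signals, differed by -3.73 and -3.95 log2 and Rasgrp2, the exchange factor that activates RAP1 for integrin adhesion, by -3.20 and -3.04. Hspa1a, an inducible heat shock protein with a near-identical copy in the genome, spread more widely between arrays, from 8.46 to 10.91 log2 in the quiescent and from 5.88 to 6.34 in the dividing arrays. Slc40a1, the iron exporter of red pulp macrophages, differed by -5.07 and -4.51 log2 and read 7.85 to 9.59 in the quiescent against 3.34 to 4.09 in the dividing arrays. Cr2, the complement receptor of mature B cells, differed by -3.60 and -5.54 log2 and Cd36, a scavenger receptor, by -3.15 and -3.79. Both reached their highest level on the arrays labelled activated T, at 11.98 to 12.11 log2 for Cr2 and 9.14 to 9.23 for Cd36.

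**Figure D2:**
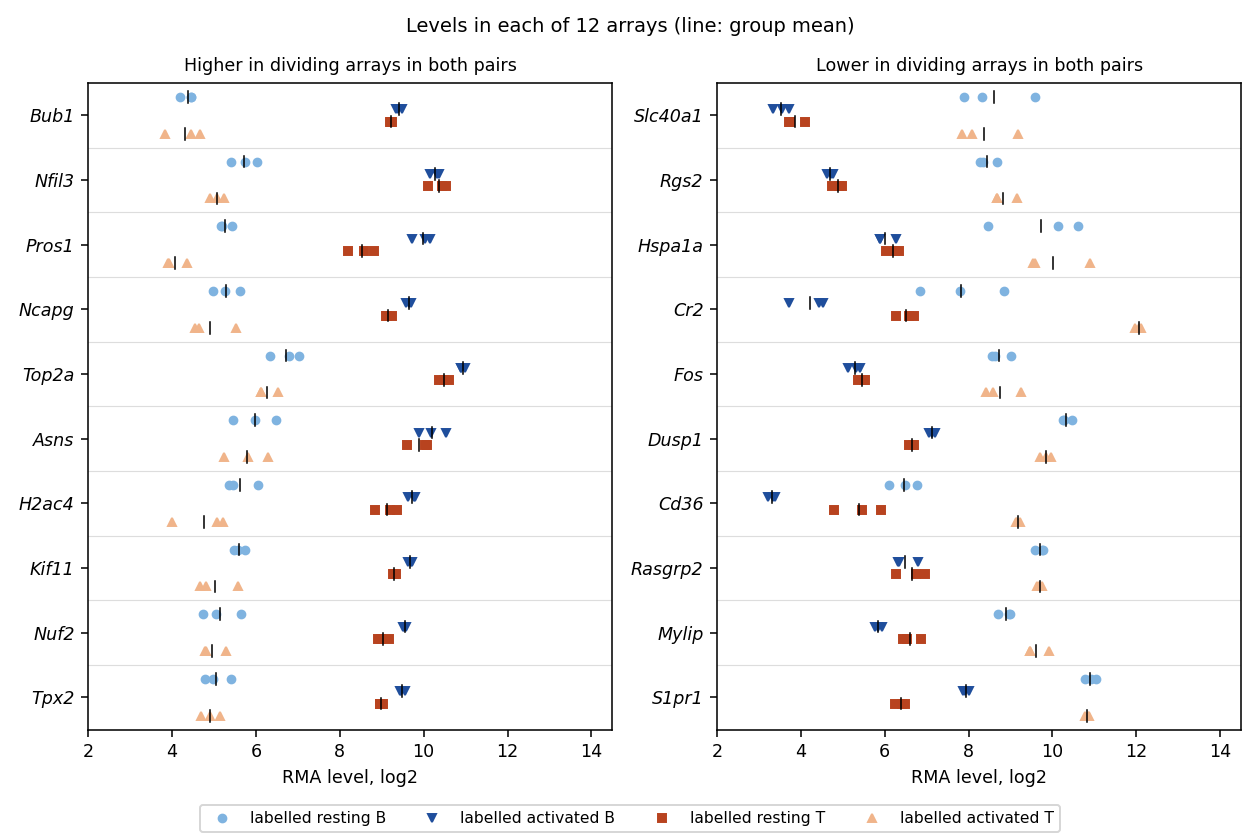
RMA level (log2) of the 10 genes with the largest difference shared by both pairs among those without overlap between dividing and quiescent arrays, higher (left) and lower (right) in dividing arrays, with 1 symbol an array, coloured by labelled group, and a black line at each group mean of 3 arrays. Dark symbols are dividing and light symbols quiescent arrays, which are apart by the choice of the genes, and Bub1 runs from below 5.21 to above 9 log2.

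No overlap between 6 dividing and 6 quiescent arrays was found for 576 of the 591 genes higher in both pairs and for 243 of the 312 lower in both, against 3992 (20.02%) of all 19937 genes, and the rule itself favours such genes. A difference of at least 4-fold in both pairs was reached by 188 higher and 47 lower genes. At the limit, Prmt1, Bcl2l1 and E030011O05Rik lay just inside 2-fold, with 1.002, 1.003 and 1.004 log2 in the labelled B pair as the smaller difference, whereas Higd1a (0.9999), Herc4 (-0.999) and Slbp (0.9987) lay just outside.

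Gene lists were used to describe what the members do, and 189 of the 591 genes higher and 57 of the 312 lower in both pairs were on 1 of 31 lists or more. Replication genes were higher in dividing arrays throughout. Of 21 measured genes that license and fire origins 16 were at least 2-fold higher in both pairs, with median differences of 2.11 and 1.96 log2 (labelled B and labelled T pair), beside -0.02 in each pair over all genes. The helicase subunits Mcm2, Mcm3, Mcm4, Mcm5, Mcm6 and Mcm7 were higher by between 1.76 and 2.82 log2, Cdc6, their loader, by 2.96 and 2.69, and Ticrr, which triggers firing, by 3.09 and 2.80. Cdt1, the other loader, was the exception, with 1.29 log2 in the labelled B and 0.09 in the labelled T pair, and was named after its values were seen. Of 24 genes of the replication fork and DNA synthesis 22 were 2-fold higher in both pairs, with medians of 2.28 and 2.08 log2. Rrm2, the small subunit of ribonucleotide reductase, led them after Top2a, with 4.12 and 3.91 log2, followed by Uhrf1, which keeps DNA methylation through replication, with 3.56 and 3.24.

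Mitotic genes showed larger differences. Among 38 genes of the kinetochore, spindle and cytokinesis 38 were at least 2-fold higher in both pairs, with medians of 3.32 and 2.67 log2, and the mean over this list on a single array was 8.57 to 8.65 log2 (labelled activated B), 7.95 to 8.08 (labelled resting T), 5.26 to 5.58 (labelled resting B) and 5.20 to 5.51 (labelled activated T). Cenpe, a kinetochore motor, was higher by 3.99 and 3.18 log2, Prc1, which bundles the central spindle, by 3.91 and 3.52, and Cenpa, the centromeric histone, by only 1.84 and 1.09. Of 27 mitotic kinases, cyclins and activators 22 were 2-fold higher in both pairs, among them Cdk1 (3.85 and 3.25 log2), Ccna2 (4.16 and 3.98) and Plk1 (3.50 and 3.54).

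The D cyclin Ccnd2 and the kinase Cdk6 were less alike. Ccnd2 was higher by 2.82 log2 in the labelled T pair and by 0.15 in the labelled B pair. Cdk6 was higher by 2.21 log2 in the labelled B and 0.82 in the labelled T pair. Of 17 genes of condensin, cohesin and chromatid separation 8 were 2-fold higher in both pairs. The condensin subunit Ncapd2 was higher by 2.83 and 2.37 log2, whereas Smc4 (0.11 and 0.88) and Ncapd3 (0.49 and 1.31) were not 2-fold higher in both. The cohesin ring genes Smc1a (0.70 and 0.57), Smc3 (0.50 and 0.50) and Rad21 (0.75 and 0.64) stayed under 2-fold and Stag2 was slightly lower (-0.33 and -0.43). Of 13 genes of the anaphase promoting complex and its partners 10 were called higher in both pairs, against 12.9% of all genes, and 4 were 2-fold higher in both. These were the partners Cdc20 (2.83 and 2.40 log2), Fbxo5 (2.29 and 1.69), Ube2c (2.14 and 1.71) and Ube2s (1.48 and 1.15). The partner Fzr1 stood at 1.44 and 0.89 log2, and the core subunits ranged from Anapc7 (0.09 and 0.08) to Cdc27 (1.06 and 0.46) and Anapc5 (0.48 and 0.97).

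Of 17 E2F factors and pocket proteins 5 were 2-fold higher in both pairs, with E2f8, a repressor of the family, at 2.60 and 2.54 log2, E2f1 at 1.83 and 1.49 and the partner Tfdp1 at 2.04 and 2.10. Rb1, the retinoblastoma protein that restrains E2F, differed by 0.17 and -0.93 log2. Histone genes split as well. Of 12 measured genes of core and linker histones 7 were 2-fold higher in both pairs, among them the linker histone H1f5 at 3.28 and 2.65 log2, and 2 were 2-fold lower, another linker histone, H1f2, at -1.36 and -1.15 and H2bc4 at -1.08 and -1.21. Probes of histone genes can match several copies, so single members are uncertain.

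**Figure D3:**
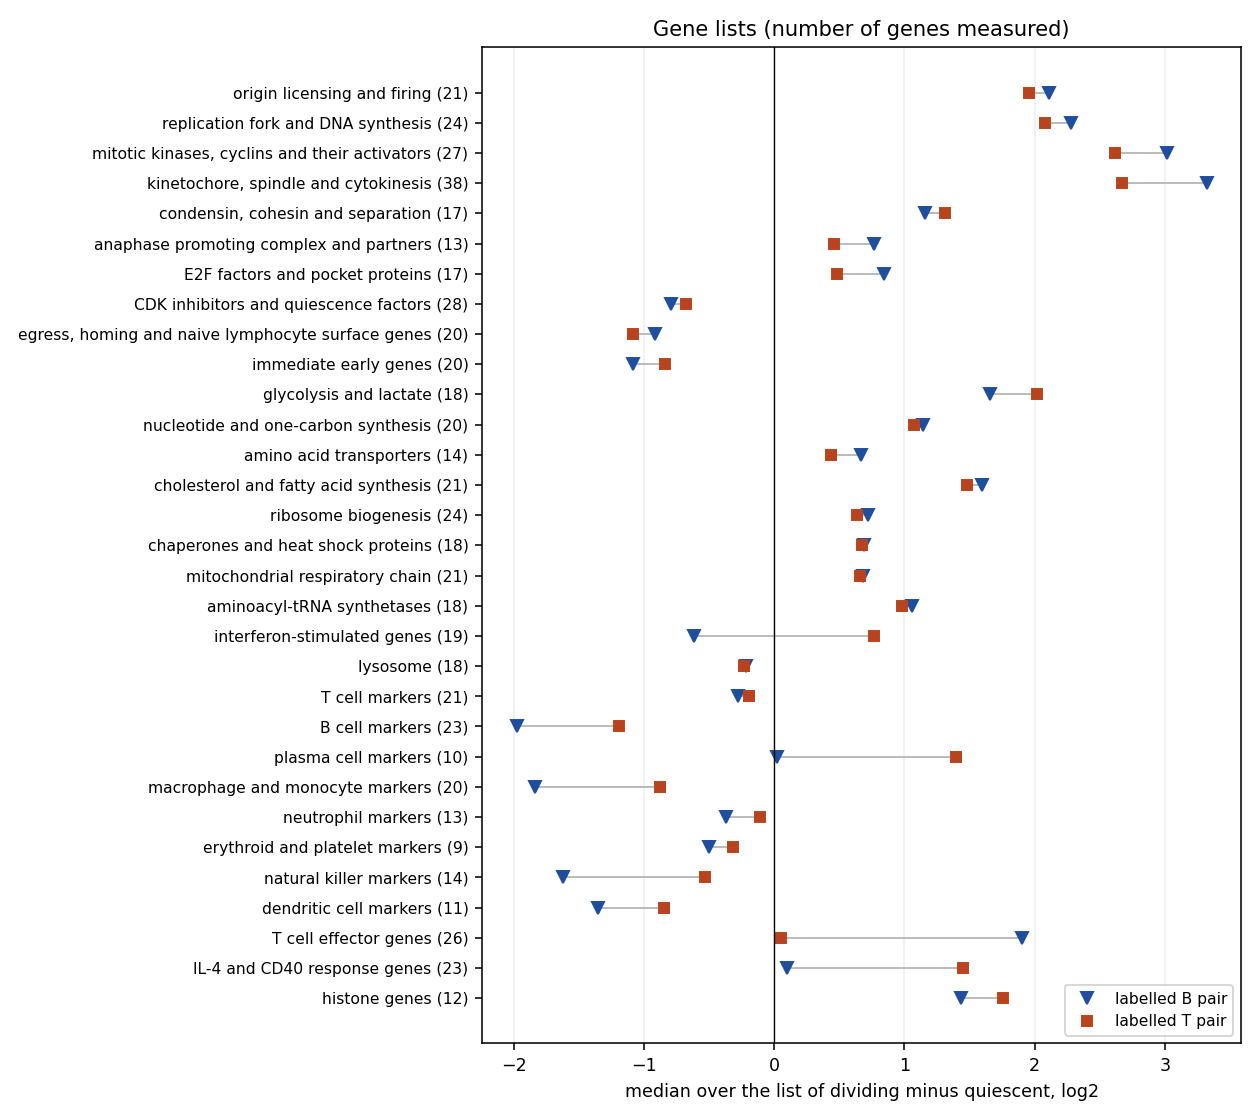
Median log2 difference of dividing minus quiescent arrays over each gene list (number of measured genes in parentheses), with triangles for the labelled B pair and squares for the labelled T pair. Lists of replication, mitosis and biosynthesis lie right of 0 in both pairs, reaching 3.32 log2 for kinetochore and spindle genes, whereas interferon-stimulated genes lie at -0.62 and 0.77.

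Promoters were compared for sequence motifs, which the choice of genes did not use. Windows of 300 bases, 250 before and 50 after the start, were taken from RefSeq (GRCm38.p6), 32851 in all, and 483 of the 591 genes higher in both pairs had at least 1. A CCAAT box, which NF-Y binds, was found on either strand in 51.4% of 560 promoters of genes higher in both pairs, against 37.4% of all promoters, the same share of the 19176 promoters of tested genes and 35.9% of 326 promoters of genes lower in both. The letters TTTGAA of the cell cycle homology region, where MuvB docks, were in 25.5%, against 17.9% of all promoters, 14.8% of those of tested genes and 17.5% of those of genes lower in both. E2F sites (TTGGCGC or TTCCCGC, the former overlapping a CCAAT box wherever the reversed letters are followed by T) were in 22.5%, against 6.81% of all promoters, 9.28% of those of tested genes and 4.6% of those of genes lower in both. ETS sites (CCGGAAG) were in 101 of the 560, against 8.86% of all promoters, 12.1% of those of tested genes and 4.6% of those of genes lower in both. The median GC content was 60.3% in promoters of genes higher in both pairs, 57.3% both in those lower in both and in those of tested genes, and 52.7% over all promoters, and its part in these shares was not tested.

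The lists differed from each other in some of these letters. Kinetochore and spindle genes had the homology region in 60.5% of 38 promoters and both it and a CCAAT box in 47.4%, against 6.95% of all promoters and 5.85% of those of tested genes. Genes of origin licensing had an E2F site in 52.6% of 19 promoters and genes of the replication fork in 46.4% of 28. Cholesterol and fatty acid genes carried a CCAAT box in 71.4% of 21 promoters and the homology region in 14.3%. A CCAAT box was about as frequent in kinetochore and spindle (71.1%) and licensing promoters (73.7%), and was in 53.6% of replication fork promoters. Promoters of tested genes had it in 37.4%. The homology region was in 31.6% of licensing and 14.3% of replication fork promoters, against 14.8% of those of tested genes. A match is a description of letters, not of binding.

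**Figure D4:**
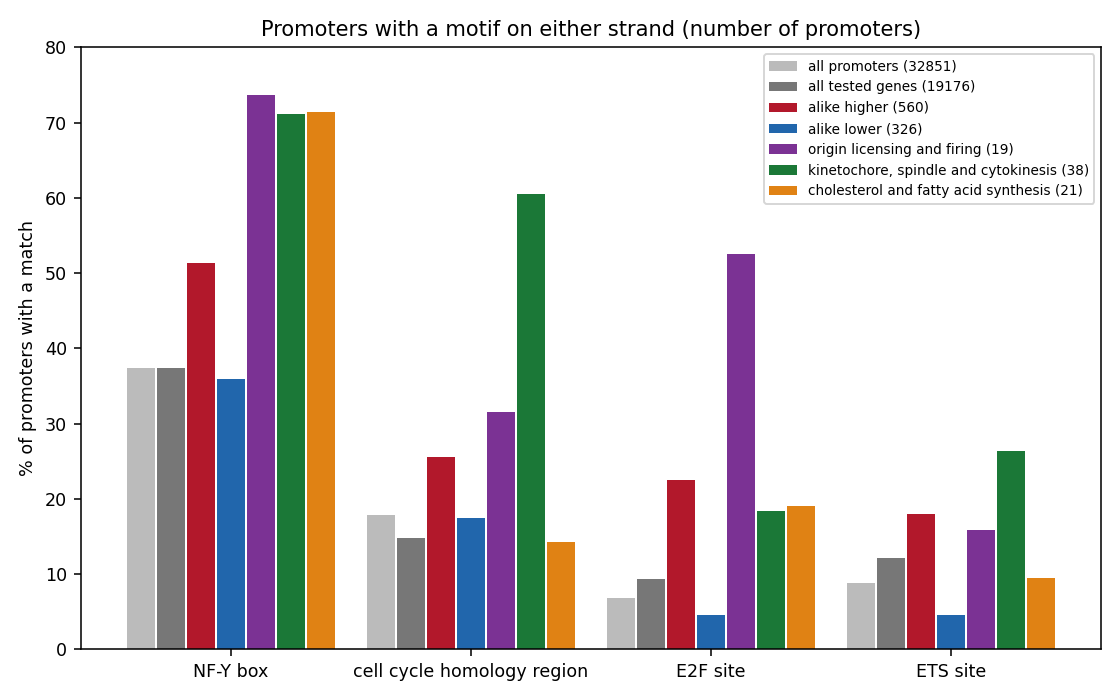
Share of promoter windows (%) with a match on either strand to 4 motifs, for all promoters, for tested genes, for genes alike higher and alike lower in dividing arrays and for 3 gene lists, with the number of promoters in parentheses. E2F sites reach 52.6% in origin licensing genes and the homology region 60.5% in kinetochore genes, against 9.28% and 14.8% of promoters of tested genes.

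The 250 bases before the start are shown for 4 mitotic genes described above, for a licensing gene, for a gene of cholesterol synthesis and for Fos, which was lower in dividing arrays, since these windows show the letters counted. Capitals mark CCAAT boxes, the cell cycle homology region and E2F sites on either strand, so that some stand in their reversed form. Coordinates are GRCm38.p6 and the bases run from 5′ to 3′ on the strand of the gene.
Bub1 (chr2:127831860-127832109, minus strand): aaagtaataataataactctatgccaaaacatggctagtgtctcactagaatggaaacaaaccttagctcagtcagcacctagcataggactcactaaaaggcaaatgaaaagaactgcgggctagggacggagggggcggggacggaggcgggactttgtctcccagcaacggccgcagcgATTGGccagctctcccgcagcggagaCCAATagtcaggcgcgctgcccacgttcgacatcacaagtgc
Kif11 (chr19:37376132-37376381, plus strand): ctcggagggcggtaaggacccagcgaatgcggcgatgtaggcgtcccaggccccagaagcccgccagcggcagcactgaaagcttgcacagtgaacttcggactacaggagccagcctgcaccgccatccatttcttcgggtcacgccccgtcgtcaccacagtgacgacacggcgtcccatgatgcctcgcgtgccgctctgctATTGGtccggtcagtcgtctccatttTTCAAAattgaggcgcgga
Ncapg (chr5:45669675-45669924, plus strand): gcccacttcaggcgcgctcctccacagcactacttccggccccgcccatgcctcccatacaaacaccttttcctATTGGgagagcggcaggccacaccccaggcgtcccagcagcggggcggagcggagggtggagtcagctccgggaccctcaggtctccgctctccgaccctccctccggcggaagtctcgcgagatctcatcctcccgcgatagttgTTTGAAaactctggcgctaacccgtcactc
Top2a (chr11:99024190-99024439, minus strand): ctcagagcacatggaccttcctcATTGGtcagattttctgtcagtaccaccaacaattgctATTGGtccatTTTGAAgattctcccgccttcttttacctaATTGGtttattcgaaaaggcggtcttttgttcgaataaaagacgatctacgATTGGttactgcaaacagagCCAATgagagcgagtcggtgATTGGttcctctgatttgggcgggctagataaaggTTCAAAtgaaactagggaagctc
Mcm5 (chr8:75109259-75109508, plus strand): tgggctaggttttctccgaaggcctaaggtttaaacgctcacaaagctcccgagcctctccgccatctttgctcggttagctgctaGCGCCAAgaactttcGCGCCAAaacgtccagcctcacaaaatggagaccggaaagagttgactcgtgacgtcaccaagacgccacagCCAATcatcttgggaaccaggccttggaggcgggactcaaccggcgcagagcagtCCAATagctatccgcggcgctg
Hmgcs1 (chr13:119690101-119690350, plus strand): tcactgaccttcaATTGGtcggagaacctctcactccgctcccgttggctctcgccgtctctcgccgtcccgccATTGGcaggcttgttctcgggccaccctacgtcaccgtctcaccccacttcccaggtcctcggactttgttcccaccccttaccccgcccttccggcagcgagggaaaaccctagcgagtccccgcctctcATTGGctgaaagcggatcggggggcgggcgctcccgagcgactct
Fos (chr12:85473640-85473889, plus strand): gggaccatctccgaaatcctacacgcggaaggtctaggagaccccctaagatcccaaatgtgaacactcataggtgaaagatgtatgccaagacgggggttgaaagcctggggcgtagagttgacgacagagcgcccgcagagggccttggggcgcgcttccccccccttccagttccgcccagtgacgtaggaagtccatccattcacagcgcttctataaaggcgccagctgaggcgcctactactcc
In Kif11 a CCAAT box and the homology region began 45 and 19 bases before the start. Top2a had 6 CCAAT boxes and 2 homology regions in its window. Mcm5, a helicase subunit that was higher by 2.32 and 1.96 log2, had 2 CCAAT boxes and 2 E2F sites, and the Fos window had none of these letters.

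Biosynthetic lists had positive medians in both pairs. Of 18 glycolysis genes 14 were at least 2-fold higher in both, with medians of 1.65 and 2.02 log2. Hk2, the inducible hexokinase, was higher by 3.06 and 2.81 log2, Tpi1 by 3.29 and 3.42 and Slc16a3, which exports lactate, by 3.03 and 3.13, whereas the constitutive Hk1 differed by -0.01 and -0.09 and the glucose carrier Slc2a3 by 1.27 and -0.29. Of 21 cholesterol and fatty acid genes 12 were 2-fold higher in both pairs, with Sqle, squalene epoxidase, at 2.53 and 2.91 log2, Idi1 at 2.63 and 3.44 and Scd2, a stearoyl desaturase, at 3.88 and 2.33. The difference between pairs was called for 7 of the 18 glycolysis and 9 of the 21 cholesterol and fatty acid genes, against 14.7% of all genes.

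Nucleotide and one-carbon synthesis had 10 of 20 genes past 2-fold, with Psat1 of serine synthesis at 2.84 and 2.63 log2 and Mthfd2, the mitochondrial folate enzyme, at 1.68 and 2.22. Aminoacyl-tRNA synthetases had 7 of 18 past 2-fold and 18 called higher in both pairs at any size, against 12.9% of all genes. Ribosome biogenesis genes were called higher in both pairs for 23 of 24 members, yet 0 of them passed 2-fold in both, with medians of 0.72 and 0.64 log2. Respiratory chain genes behaved in the same way, with 18 of 21 called higher in both pairs, medians of 0.68 and 0.66 log2 and only Cycs, cytochrome c, past 2-fold in both (1.66 and 1.13). Chaperonin subunits were likewise called but small, for example Cct3 at 0.64 and 0.83 log2, and Tcp1 was the single member of 18 chaperones past 2-fold (1.12 and 1.12).

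Amino acid transporters were more uneven. Slc7a5, the large neutral amino acid carrier, was higher by 2.52 and 2.64 log2, while Slc38a2 differed by -0.03 and -0.27. Slc43a3, on the list although it carries nucleobases and not amino acids, was higher by 2.84 and 2.97 log2. In all, 3 of the 14 genes on the list, Slc43a3 among them, passed 2-fold in both pairs.

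Genes of quiescence and recirculation were lower. Of 28 CDK inhibitors and quiescence factors 8 were 2-fold lower in both pairs, with medians of -0.79 and -0.68 log2. Tsc22d3, the glucocorticoid-induced leucine zipper, differed by -2.66 and -3.41 log2, Klf2, which holds lymphocytes in quiescence, by -2.75 and -1.54, and Btg1, which slows growth, by -1.55 and -1.18. For Cdkn1b, the inhibitor p27, the values were -1.38 and -0.72. Cdkn2c, the inhibitor p18, ran against the list and was higher by 1.74 and 1.31 log2, and was named after its values were seen.

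Of 20 genes of egress, homing and the naive surface 6 were 2-fold lower in both pairs, among them Cd55, which protects from complement, at -2.52 and -3.15 log2, and Il7r, the IL-7 receptor, at -1.05 and -1.35. Cxcr4, the receptor for CXCL12, stood at -1.51 log2 in the labelled T pair and at -0.20 in the labelled B pair. Gpr183, the oxysterol receptor, stood at -2.48 log2 in the labelled B pair and at 0.13 in the labelled T pair. Among 20 immediate early genes 8 were 2-fold lower in both, including Fosb at -2.63 and -3.41 log2, Jun at -3.50 and -1.83 and Nr4a1 at -1.34 and -2.39. Egr2, another immediate early gene, was 2.74 log2 higher in the labelled T pair and differed by 0.05 in the labelled B pair, whereas Egr1 stayed under 2-fold in both (-0.73 and -0.82).

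Markers of several other spleen cells were mostly lower in the dividing arrays. Of 20 macrophage and monocyte genes 9 were 2-fold lower in both pairs, with array means over the list of 6.49 to 7.24 log2 (labelled resting B) and 6.50 to 7.03 (labelled activated T), against 4.64 to 4.77 (labelled activated B) and 5.48 to 5.65 (labelled resting T). Csf1r, the receptor for M-CSF, differed by -2.48 and -2.01 log2, Vcam1, an adhesion molecule, by -3.34 and -2.82 and Spic, a factor of red pulp macrophages, by -2.20 and -2.09. Slc40a1 belongs to the same list. Natural killer genes were 2-fold lower in both pairs for 5 of 14 members, with Ncr1 at -3.99 and -1.31 log2, dendritic cell genes for 4 of 11 and erythroid or platelet genes for 1 of 9, the platelet chemokine Ppbp (-3.84 and -2.67). Some ran the other way, with the granzyme Gzma of the natural killer list at 1.86 and 1.80 log2 and the dendritic cell factor Batf3 at 1.78 and 0.99. At any size, 8 of the 14 natural killer, 6 of the 11 dendritic, 2 of the 9 erythroid or platelet and 1 of 13 neutrophil genes were called lower in both pairs, against 9.89% of all genes. Of the neutrophil genes 5 passed the background in a group, and S100a8, S100a9 and Ngp were below it in every group mean. Mpo, myeloperoxidase, averaged 6.07 log2 on the labelled resting B arrays and differed by -1.60 and -0.27, and Retnlg averaged 6.00 there and differed by -1.67 and -0.58. B cell genes were 2-fold lower in both pairs for 15 of 23 members, with array means of 6.96 to 8.11 log2 (labelled resting B), 5.30 to 5.48 (labelled activated B), 9.01 to 9.28 (labelled resting T) and 10.69 to 10.85 (labelled activated T). T cell genes were past 2-fold in both pairs for 1 of 21 members, Ctla4 (1.97 and 1.27 log2), with array means of 9.53 to 9.72, 9.47 to 9.60, 5.40 to 5.78 and 5.54 to 6.25 log2 in the same order. The labelled resting B arrays carried B cell transcripts at a middle level, and these were near the background on the labelled activated B arrays. The part of these cells in the 312 genes lower in both pairs was not tested.

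Cytokine response and T cell effector genes shared part of the pattern but also differed between the pairs. Of 23 genes known to answer IL-4 or CD40 9 were 2-fold higher in both pairs, among them Cish, a feedback inhibitor of STAT5, at 3.09 and 3.41 log2, Socs2 at 3.08 and 6.46 and the IL-4 receptor chain Il4ra at 1.62 and 1.38. The medians over this list were 0.10 log2 in the labelled B pair and 1.45 in the labelled T pair. Of 26 T cell effector genes 6 were 2-fold higher in both, with Gzmb, granzyme B, at 5.94 and 3.90 log2, Il2ra, the high affinity IL-2 receptor chain, at 4.70 and 3.59 and Tnfrsf8, CD30, at 5.04 and 2.59. Here the medians were 1.91 and 0.05 log2. The difference between pairs was called for 13 of the 23 and 17 of the 26 genes, against 14.7% of all genes. The plasma cell factors Prdm1 (1.77 and 1.55 log2) and Xbp1 (1.56 and 2.01) were also higher in both pairs. Of 10 plasma cell genes measured, however, only 3 were 2-fold higher in both and 2 ran 2-fold in opposite directions. In the labelled B pair 4 were called higher and 4 lower, with a median of 0.02 log2. In the labelled T pair 8 were called higher and 0 lower, with a median of 1.39 log2.

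The size of a shared change often differed between the pairs. The difference between pairs was called for 167 of the 591 genes higher in both, 127 of them larger in the labelled B pair and 40 in the labelled T pair, and for 126 of the 312 lower in both, against 14.7% of all genes. This contrast also entered the choice of the genes of 1 pair alone, so it is given with no test for the members. The labelled B pair minus the labelled T pair was 1.47 log2 for S1pr1 and 1.94 for Cr2, so that both were further down in the labelled T pair.

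The difference between the labelled cell types, averaged over dividing and quiescent arrays, did not enter the classes, though its test shares the residual spread of each gene with theirs. It was called (limma, adjusted p under 0.05) for 298 of the 591 genes higher in both pairs and for 205 of the 312 lower in both, against 26.9% of all genes and 39.0% of the 12867 genes whose level passed the background in at least 1 group. Among the genes higher in both pairs 250 (42.3%) were higher on the labelled B arrays, against 14.6% of all genes, and 48 were lower, yet the sizes were small, with a median of 0.21 log2 and 30 genes past 2-fold. Of the genes lower in both pairs 100, or 32.1%, passed 2-fold between the labelled cell types, against 4.55% of all genes. For genes named above the contrast is a description, since they were chosen without overlap between dividing and quiescent arrays, which favours small differences between the labelled cell types. Labelled B minus labelled T was -3.26 ± 0.24 log2 (SE) for Cr2 and -2.39 ± 0.15 for Cd36, against -0.10 ± 0.12 for Fos, -0.08 ± 0.11 for Rasgrp2 and 0.12 ± 0.11 for Bub1.

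Lists divided in this contrast too. Of 38 kinetochore and spindle genes 24 were higher and 0 lower on the labelled B arrays, of 21 licensing genes 11 and 0, of 20 nucleotide genes 12 and 0 and of 21 respiratory chain genes 13 and 0. Over all genes 26.9% were called in this contrast and 14.6% were called higher on the labelled B arrays. Among genes higher in both pairs the latter share was 42.3%. Kinetochore and spindle means differed between the dividing groups, at 8.57 to 8.65 log2 (labelled activated B) and 7.95 to 8.08 (labelled resting T). Between the quiescent groups they overlapped, at 5.26 to 5.58 log2 (labelled resting B) and 5.20 to 5.51 (labelled activated T). Cholesterol genes had 3 higher and 4 lower of 21, and aminoacyl-tRNA synthetases 2 and 2 of 18, near the share called over all genes. Respiratory chain means were 9.91 to 9.94 log2 (labelled activated B), 9.61 to 9.68 (labelled resting T), 9.09 to 9.31 (labelled resting B) and 8.98 to 9.09 (labelled activated T).

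Genes higher in the labelled B pair alone included steroid enzymes and cytokines. Akr1c18, a hydroxysteroid dehydrogenase, read 11.45, 10.86 and 10.52 log2 on the arrays labelled activated B and between 3.39 and 3.95 on the other 9. Cyp11a1, which cleaves the side chain of cholesterol, read 10.82, 10.84 and 10.98 against 4.44 to 5.33, and Il10, the anti-inflammatory cytokine, 7.98, 8.11 and 8.03 against 3.53 to 3.91. The other 9 arrays thus stayed near or below the background of 5.21 log2, and the differences of 7.21, 5.77 and 4.34 log2 are lower bounds.

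Il21 was higher by 4.12 log2, Ecm1, a matrix protein, by 4.74, Cysltr1, a leukotriene receptor, by 3.89 and Il12rb2, a chain of the IL-12 receptor, by 3.83, with differences in the labelled T pair between -0.13 and 0.17. Lif, a cytokine of the IL-6 family, was higher by 4.34 log2 but also differed by 0.43 in the labelled T pair, and left the class under 5 of 23 alternative settings. The T cell cytokines Il4 (2.11 and -0.09 log2) and Il13 (2.27 and -0.13), the receptor Tnfrsf4 (3.17 and 0.05) and the factor Gata3 (1.85 and 0.09) were in the same class. Of the 26 T cell effector genes 6 were in this class, but 3 were lower in the labelled B pair alone. The shares over all genes were 0.782% and 0.772%. In all 61 of the 156 genes had both group means of the labelled T pair at or below the background.

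Genes lower in the labelled B pair alone were led by immunoglobulin and antigen presentation genes. Igkv10-96, a kappa variable segment, read 8.77, 9.29 and 9.49 log2 on arrays labelled resting B and 3.21, 4.93 and 4.41 on those labelled activated B, against 9.19 to 10.04 on all 6 labelled T arrays. H2-Aa, an MHC class II chain, read 10.58, 11.48 and 10.81 and then 5.18, 6.44 and 5.49, against 12.41 to 12.82. The 6 labelled T arrays stood above both labelled B groups for H2-Aa, whereas for Igkv10-96 they overlapped with those labelled resting B. Cd74, the invariant chain of MHC class II, differed by -4.47 log2, Igha by -3.57 and Mpeg1, a pore-forming protein of phagocytes, by -4.84, with -0.44, 0.38 and -0.30 in the labelled T pair. Igkv10-96 left the class under 2 of 23 alternative settings and Cd74, Igha and Mpeg1 under 1 each, which for Igkv10-96 and Cd74 included the replicate number as a block. Probes for a variable segment can match other members of the family, so single segments are uncertain. Of the 154 genes 40 had both group means of the labelled T pair at or below the background, where a fall could not be seen.

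**Figure D5:**
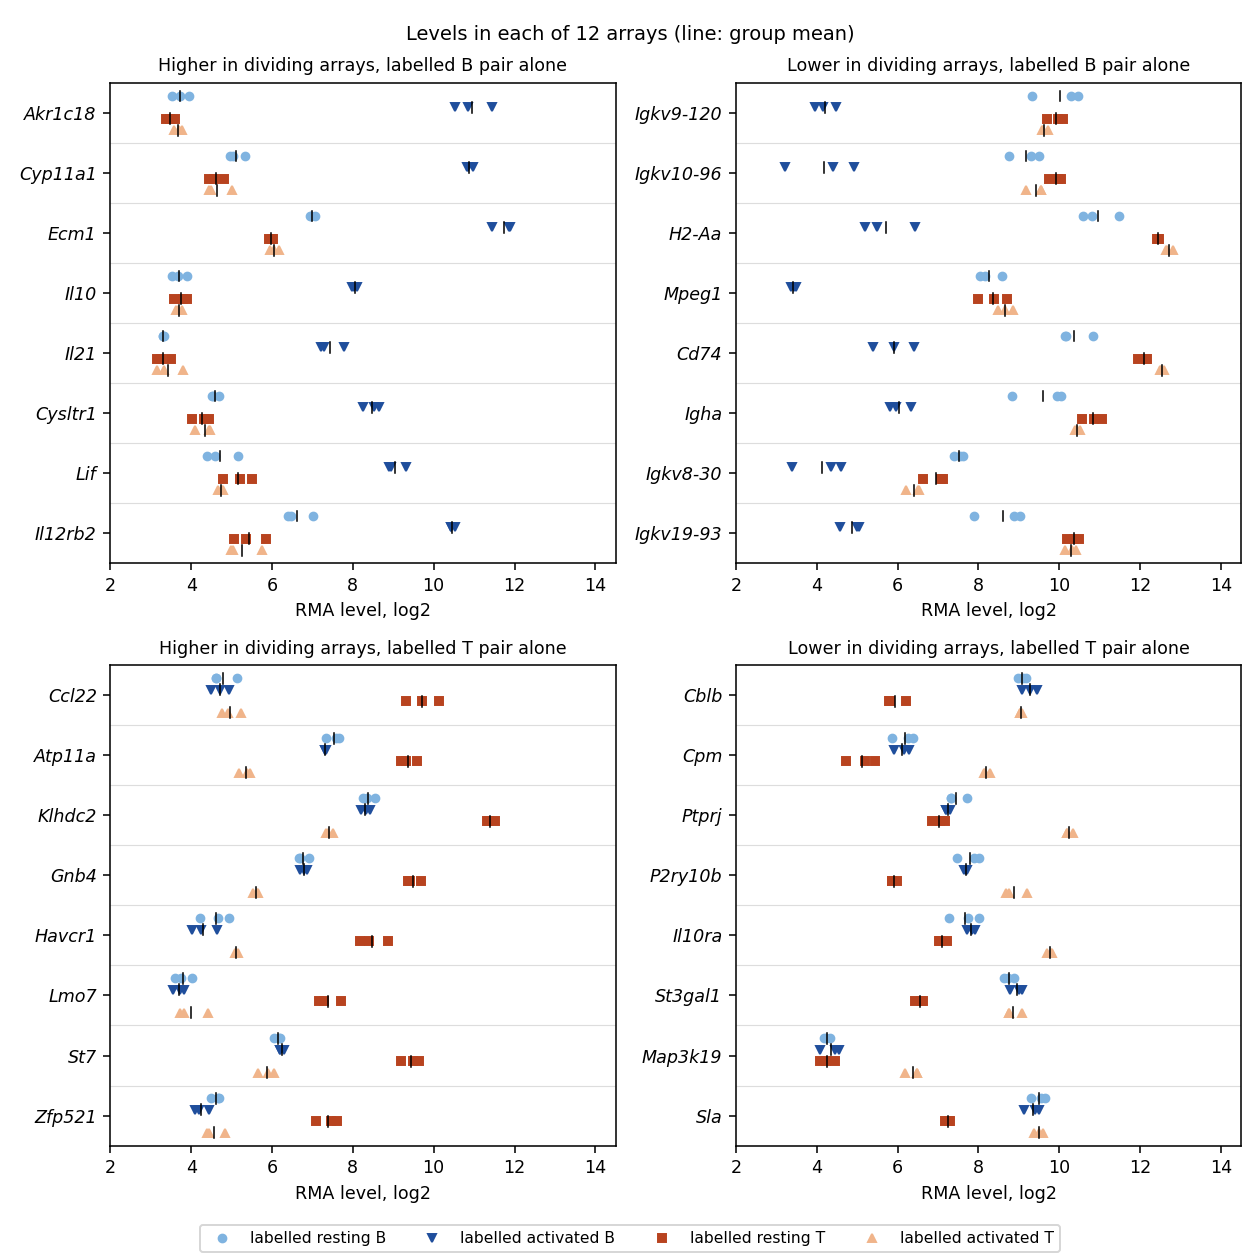
RMA level (log2) on each of 12 arrays for the 8 genes with the largest difference between pairs in each of 4 classes, coloured by labelled group, with a black line at each group mean of 3 arrays. In the upper left panel only arrays labelled activated B are high (Akr1c18 at 10.52 to 11.45 log2), and in the lower left panel those labelled resting T are highest (Ccl22 at 9.31 to 10.13).

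Genes higher in the labelled T pair alone were of mixed function. Ccl22, a chemokine of activated antigen-presenting cells, read 9.31, 9.70 and 10.13 log2 on arrays labelled resting T and between 4.50 and 5.24 on the other 9. Klhdc2, a substrate receptor of a ubiquitin ligase, read 11.52, 11.37 and 11.32 against a mean of 7.41 ± 0.09 (SD, n = 3, labelled activated T), with the labelled B arrays between, at 8.19 to 8.55. Atp11a, a phospholipid flippase, was higher by 4.02 log2, Gnb4, a G protein beta subunit, by 3.89, and Havcr1, TIM-1, by 3.36, with differences in the labelled B pair of -0.21, 0.02 and -0.31. Havcr1 left the class without replicate 3 of labelled resting B. Thus the labelled B arrays were at background for Ccl22 and at a middle level for Klhdc2. Of the 102 genes 30 had both labelled B means at or below the background.

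Lower in the labelled T pair alone was Cblb, a ubiquitin ligase that limits receptor signals, with 5.81, 5.80 and 6.22 log2 on arrays labelled resting T and 8.97 to 9.44 on the other 9. St3gal1, a sialyltransferase, read 6.63, 6.58 and 6.42 against 8.63 to 9.09, and Sla, an adaptor that lowers receptor levels, 7.27, 7.29 and 7.17 against 9.14 to 9.64. For these genes the arrays labelled resting T stood below all the others. Each of the 3 left the class under 1 of 23 alternative settings, Cblb and St3gal1 under centring on the median and Sla under quantile normalization. Ptprj, the phosphatase CD148, had another shape, at 10.19, 10.18 and 10.34 log2 (labelled activated T) against 6.85 to 7.72 on the other 9 arrays. Il10ra, the IL-10 receptor, differed by -2.66 log2 and Cpm, a carboxypeptidase, by -3.07. Of the 75 genes 15 had both labelled B means at or below the background, where a fall could not be seen.

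Few genes ran at least 2-fold in opposite directions, whereas at any size 348 of the 19937 genes were called in opposite directions in the pairs. Jchain, which joins secreted IgM and IgA, read 10.62, 11.13 and 11.16 log2 on arrays labelled resting B and 4.06, 4.42 and 4.42 on those labelled activated B, but 7.44, 8.71 and 9.11 on those labelled resting T and 5.91, 5.57 and 5.24 on those labelled activated T. Mzb1, a chaperone of antibody secretion, differed by -2.20 and 1.62 log2, Il5ra by -1.04 and 3.95, Tlr7 by -1.92 and 2.09 and Lef1, a factor of naive T cells, by -1.23 and 2.15. All 5 of these were higher in the dividing arrays of the labelled T pair and lower in those of the labelled B pair.

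The reverse was seen for Cdh17, Rps6ka5, Scd1, Milr1 and Nrm, of which the last 3, like Il5ra above, left the class in 1 to 4 of 23 alternative settings. Scd1, a stearoyl desaturase, differed by 1.27 log2 in the labelled B and -1.62 in the labelled T pair, while Scd2 was higher in both. Interferon-stimulated genes also tended to part, since 11 of 19 were called lower in the labelled B pair, against 16.7% of all genes, and 16 called higher in the labelled T pair, against 17.8%, with medians of -0.62 and 0.77 log2 and 0 members past 2-fold alike. Among them Rtp4 differed by -2.52 and 1.25 log2 and Usp18, which trims ISG15, by -1.21 and 1.89.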

How the data were processed

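The authors deposited a table of log2 expression (probe sets by arrays) that the submitters' processing notes credit to RMA, of a version not given in the sources used here. RMA corrects the background, brings all arrays to 1 distribution and summarises probes, so a shift of most genes cannot be seen and low levels are compressed. Of 34760 probe sets 21640 had 1 gene symbol, and the brightest was kept for each of 19937 genes. Models had 4 group means in limma 3.58.1 under R 4.3.3 (8 residual degrees of freedom), and p-values were adjusted by Benjamini-Hochberg over all genes. Calls needed an adjusted p under 0.05 and, for the classes, at least 2-fold. The number of arrays limits the precision.

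The genes and lists were chosen with earlier results of these data known. Text names the 10 genes with the largest smaller difference without overlap, 8 per other class, 3 on each side of the limit, and from lists the first 4, the 3 with the largest difference and further members as examples, which with Cdt1 and Cdkn2c were named after their values were seen. Alternatives covered centring, filters, probe sets, fits, fold limits and left-out arrays. Deviations of same-numbered arrays correlated with 0.222, 0.158 and 0.227 in the labelled T groups and with -0.059, 0.056 and 0.252 in the labelled B groups. The models of the main results paired no arrays. Replicate numbers entered as a block only in alternative fits, in the labelled T groups alone or in both pairs. Promoters came from RefSeq GRCm38.p6 and motifs from textbook letters. Steps were tested on simulated data. Tables used Python 3.11.15 and pandas 2.3.3.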

Additional observations from a re-analysis of the deposited data

Results flagged for a closer look

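For 3 of the 20 genes picked by rule from those changed alike the size differed between the pairs by the contrast of the pairs. Labelled B pair minus labelled T pair was -0.74 log2 for Nfil3, 1.94 for Cr2 and 1.47 for S1pr1. Among all genes changed alike the same contrast was called for 167 of those higher and 126 of those lower in dividing arrays.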

How the results depend on the processing

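The 903 genes changed alike, 310 and 177 changed in the labelled B or labelled T pair alone, 20 changed in opposite directions, 8518 called in the interaction and 503 of the alike genes called between labelled cell types stayed within 1.5 times under centring, quantile normalization, array weights, an intensity trend, averaged probe sets and the removal of dim genes, wherever the alternative could be run. A fit of each pair on its own, with the test between pairs kept from all 12 arrays, gave 903, 299, 169 and 20, and 450 of the 487 pair-alone genes remained. It gives no value for the interaction or the labelled cell types. With every probe set on its own the counts were 1507, 470, 287, 35 and 13700, since more features were tested. At a limit of 1.5-fold they were 2283, 638, 447 and 109, with 1176 called between labelled cell types, and at 4-fold 235, 83, 42 and 1, with 126. Leaving out 1 array gave 880 to 932, 297 to 336, 169 to 222, 18 to 23, 8040 to 8486 and 472 to 544. With a replicate block in both pairs the counts were 903, 286, 177, 20 and 8416, all 903 alike and 447 of the 487 pair-alone genes were the same, and Cd74, Lif, Igkv10-96, Igkv8-30 and Zfp521 left their class. With the block in the labelled T groups alone, chosen after seeing the data, they were 903, 299, 169, 20 and 8591, with 516 called between labelled cell types, 461 of the 487 remained and Zfp521 was the named gene that left its class. After median centring 842 of the 903 alike and 389 of the 487 pair-alone genes remained. Among genes with a mean above the background 876 and 350 remained. With only genes above the background in both pairs counted, chosen after seeing the data, 895 were alike. The labelled B and labelled T pair alone then had 207 and 132. Of 65 genes picked by rule from the classes, not all named above, 50 kept their class under all 23 settings, and Zfp521 lost it under 10. A single array decided the class of some genes, given here with the labelled B minus the labelled T difference without it. Without labelled resting B replicate 1, Lif (4.14 log2), Igha (-4.34), Scd1 (2.56) and Milr1 (2.19) left their class, without replicate 2 Il5ra (-4.94) and without replicate 3 Havcr1 (-3.87). Without labelled activated B replicate 1 Igkv10-96 (-5.01) and Milr1 (2.24) left it, and without replicate 2 Milr1 (2.21). Without labelled resting T replicate 4 Lif (3.73) left it, without replicate 6 Mpeg1 (-4.37) and Nrm (2.18), and without labelled activated T replicate 4 Nrm (2.19). Zfp521 and Igkv8-30, a kappa segment, also depended on single arrays. Group means below the background of 5.21 log2 limit a difference to a lower bound.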

Other observations

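Among 11799 probe sets with no gene named here 148 (1.25%) were at least 2-fold higher and 320 (2.71%) at least 2-fold lower in the dividing arrays of both pairs. Unnamed probe sets were thus more often lower than higher, whereas 591 named genes were higher and 312 lower. These counts are not alike in kind. The unnamed ones came from a fit of every probe set on its own, the named ones from the brightest probe set of each gene. The array median, dividing minus quiescent, was -0.11 log2 over probe sets and -0.01 over genes. In the labelled T pair alone 6 unnamed probe sets were higher (0.0509%) and 44 lower (0.373%), against 0.512% and 0.376% of named genes. In the labelled B pair alone 28 were higher (0.237%) and 85 lower (0.72%), against 0.782% and 0.772%.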
